A study of Homo sapiens with 6 samples.

Results

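Ubiquitin-conjugating (E2) enzymes were followed in 6 RNA-seq libraries, 3 after a scramble control siRNA (si-NC) and 3 after an siRNA targeting SF3B4, which encodes a subunit of the SF3b splicing complex. The members were taken by name: every gene whose symbol starts with UBE2 and a further letter and that GENCODE 29 types as protein-coding, leaving out UBE2C, UBE2S and UBE2T. This gave 34 of 50868 listed genes, and 60 other UBE2 symbols were left out by their type. UBE2F-SCLY, a read-through of UBE2F and its neighbour, and UBE2Q2L, which the symbol table lists as the pseudogene UBE2Q2P16, met the rule and were kept. All samples are labelled A549, a human lung adenocarcinoma line, and no sample was left untransfected. The sources used here give neither the siRNA sequences nor their dose, nor how long the cells were kept with them. Titles call the replicates biological without naming separate cultures, so p-values measure the spread between these samples, which may be technical.

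E2 enzymes stand in the middle of the ubiquitin cascade. An E1 enzyme activates ubiquitin and passes it to the active-site cysteine of an E2, and the E2, together with an E3 ligase, places it on a substrate. The E2 often sets the kind of chain: chains linked through lysine 48 (K48) of ubiquitin send proteins to the proteasome, and chains linked through lysine 63 (K63) act in DNA damage tolerance and in NF-kB signalling. A few E2s carry ubiquitin-like modifiers in place of ubiquitin, among them SUMO, NEDD8 and ISG15.

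The target, SF3B4, was at 88.6 to 93.8 FPKM in control and 17.7 to 22.3 FPKM in SF3B4 siRNA libraries (log2 fold change -2.15, adjusted p = 8.8e-05). FPKM is a fragment count scaled by transcript length and by the library's total of mapped fragments. Adjusted p-values come from limma on log2(FPKM + 0.1), and 9685 genes entered the Benjamini-Hochberg adjustment. The genotype labels of replicates 2 and 3 of the SF3B4 siRNA name SF3B5 and SF3B6, while titles and treatment labels name SF3B4. SF3B5 fell as well (log2 fold change -1.10, adjusted p = 9.6e-05), and SF3B6 gave -0.14 (adjusted p = 0.18). In SF3B4 siRNA replicates 1 to 3, SF3B5 was at 200.8, 189.3 and 206.9 FPKM, against 393 to 453.3 FPKM in control libraries. SF3B6 was at 39.1, 43.3 and 42.2 FPKM, against 42.5 to 48.7 FPKM. Low values moved in steps that imply 17508446 to 18529695 fragments per library. H1650, a different lung cancer line, is named in the headers of the deposited columns. All 5 epithelial markers were present, with summed levels of 1100 to 1280 FPKM in control and 1240 to 1330 FPKM in SF3B4 siRNA libraries, but 8 genes known to be high in A549 summed to only 4.57 to 5.67 and 4.78 to 5.05 FPKM. Of those 8, AKR1C1, ALDH1A1 and CPS1 stayed below 0.1 FPKM in every library, so these genes go against the A549 label, and the line is given only as labelled. Of 10 markers of fibroblasts, leukocytes and endothelium, CD68 (22.3 to 30.6 FPKM) and COL1A1 reached 1 FPKM, PTPRC was listed at 0 throughout, and the sums were 24.6 to 32.8 FPKM in control and 28.9 to 31.2 FPKM in SF3B4 siRNA libraries. Some single markers were apart between the groups, as were 49.5% of all tested genes. COL1A1 was at 1.24 to 1.44 FPKM in control and 2.23 to 2.33 FPKM in SF3B4 siRNA libraries, and the epithelial cadherin gene CDH1 at 33.6 to 49.1 and 61.3 to 84.3 FPKM. EPCAM was at 18 to 24.9 and 25.8 to 28.8 FPKM, AKR1B10 at 0.791 to 0.979 and 1.99 to 2.25 FPKM, and AKR1C3 at 0.678 to 0.839 and 0.888 to 1.15 FPKM. VIM was at 2.69 to 4.06 and 1.41 to 1.65 FPKM. Other markers overlapped, among them COL3A1 (0.753 to 0.897 and 0.598 to 0.808 FPKM), KRT8 and KRT18. The part of these markers in the results was not tested.

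Levels of the E2 transcripts, given in FPKM and so scaled by length, covered a wide range. UBE2L6, the E2 for ISG15, was the highest member in every library, followed by UBE2M, an E2 for NEDD8, and by UBE2L3. UBE2L6 and UBE2M made up 44.6% to 52.9% of the summed level of the members in control libraries and 54.6% to 58.2% in SF3B4 siRNA libraries. The ranks and shares leave out UBE2S (102 and 70.3 FPKM), UBE2C (92.4 and 73.6 FPKM) and UBE2T (32.3 and 26.3 FPKM), which the rule excepts. They also leave out PEDS1-UBE2V1 (81.03 and 59.45 FPKM), a read-through that shares exons with UBE2V1. How fragments over those exons divide cannot be told, so the ranks and shares hold for the listed values only. In all, 8 members averaged at least 10 FPKM over the 6 libraries, 18 lay between 1 and 10 FPKM, 6 lay below 1 FPKM, and UBE2QL1 and UBE2U were listed at 0 in all libraries. The filter, FPKM of at least 1 in at least 3 libraries, passed 26 of the 34 members.

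**Figure D1:**
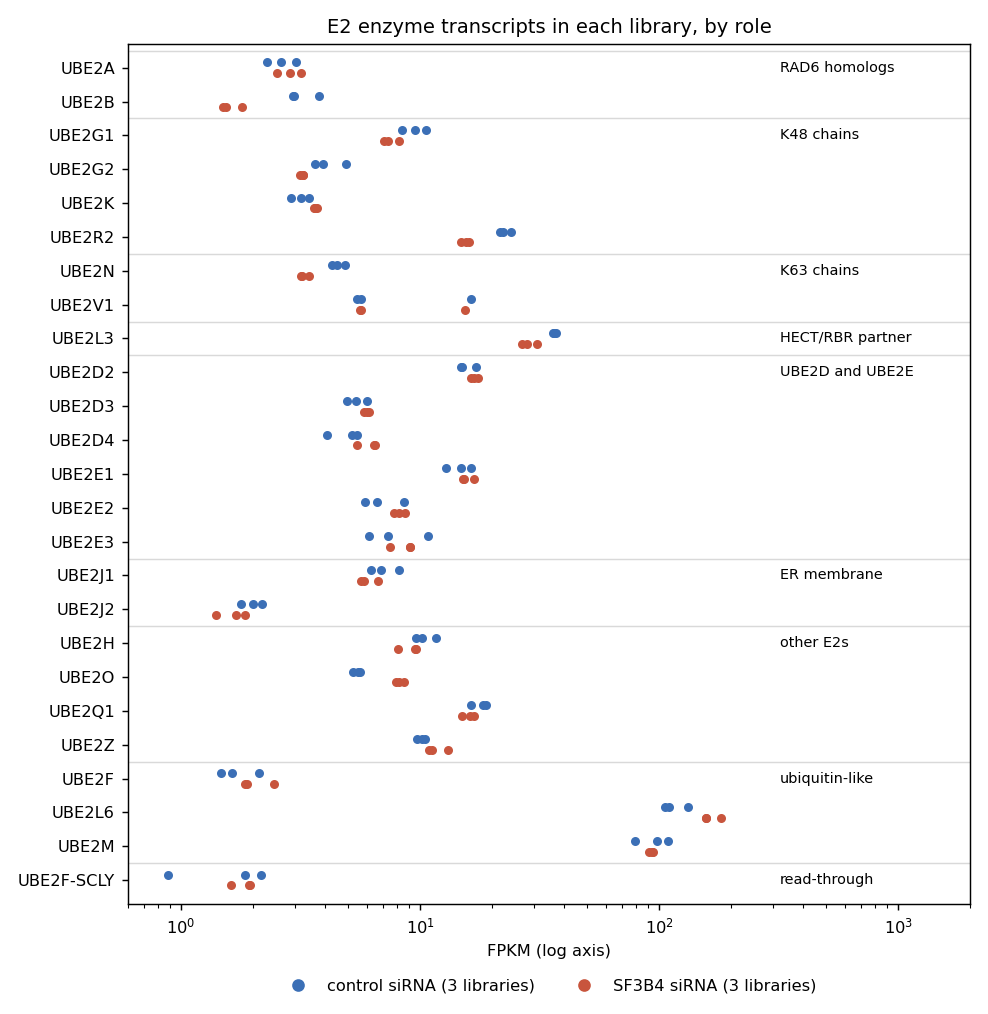
FPKM (log axis) of 25 of the 26 tested E2 genes in each library, grouped by role, with control siRNA in blue and SF3B4 siRNA in red. UBE2L6 and UBE2O sit higher and UBE2B, UBE2R2, UBE2N, UBE2L3 and UBE2G1 lower in all 3 SF3B4 siRNA libraries, and UBE2V1 stands apart in replicate 1 of both groups.

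Of the 26 tested members, 5 fell (UBE2B, UBE2R2, UBE2N, UBE2L3 and UBE2G1) and 2 rose (UBE2O and UBE2L6), together 26.9%, against 34.1% of all tested genes, so the share was not above the background. By direction, 18.1% of all tested genes were lower and 16.0% higher. Groups did not overlap in 11 members, 42.3%, against 49.5% of all tested genes. The median log2 fold change of the members was 0.04, beside -0.0035 over all tested genes, and the median size of the change without regard to sign was 0.23 beside 0.25. None of the 26 members changed by 2-fold or more on the log2(FPKM + 0.1) scale, as 4.42% of all tested genes did. UBE2B lay close to that cut-off, at 50.18% of control in mean FPKM. Its log2 fold change ran from -1.03 to -0.687 over 14 alternatives. The values are relative levels in bulk RNA, in which fewer cells and less RNA per cell cannot be told apart.

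UBE2B and UBE2A are the human counterparts of yeast RAD6, which with the ligase RAD18 marks the replication clamp PCNA and with RNF20 and RNF40 marks histone H2B. UBE2B (GRCh38 chromosome 5, 134371179 to 134391992) had the largest change of the tested members. It measured 3.78, 2.93 and 2.97 FPKM in control and 1.50, 1.55 and 1.81 FPKM in SF3B4 siRNA libraries. All 3 SF3B4 siRNA libraries were below the lowest control library, and the level fell to 0.519 times the control on the log2(FPKM + 0.1) scale (log2 fold change -0.95 ± 0.14, SE, n = 3 each, adjusted p = 0.0020). UBE2A stood at 2.63, 2.28 and 3.05 FPKM in control and at 2.52, 3.17 and 2.85 FPKM in SF3B4 siRNA libraries. Its groups overlapped, and its log2 fold change was 0.10 with a 95% interval of -0.22 to 0.42 (adjusted p = 0.61). UBE2A shares 18.1% of its exonic length with NKRF on the other strand, and the sources do not say whether counting used strand. The log2 ratio of UBE2B over UBE2A was 0.51, 0.35 and -0.03 in control libraries and -0.72, -0.98 and -0.63 in SF3B4 siRNA libraries. That ratio was therefore lower in every SF3B4 siRNA library, by 1.05 on average. An exact two-sided permutation test gave p = 0.1, the smallest p that 3 libraries against 3 can give. The test therefore cannot decide whether UBE2B and UBE2A responded differently. As the groups of UBE2A overlapped, the lower ratio mostly restates the fall of UBE2B and is no separate support for it.

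Among E2s that build K48 chains, UBE2R2, UBE2G1, UBE2G2 and UBE2K were tested. UBE2R2 (chromosome 9, 33817567 to 33920404), a partner of cullin-RING ligases and close relative of CDC34, measured 22.3, 21.7 and 24 FPKM in control and 14.8, 16.1 and 15.6 FPKM in SF3B4 siRNA libraries. Every SF3B4 siRNA library was below every control library, and UBE2R2 fell with a log2 fold change of -0.54 ± 0.07 (SE, n = 3 each, adjusted p = 0.0014). CDC34 itself, whose symbol is outside the rule, was at 9.15 ± 2.12 and 9.52 ± 1.09 FPKM (SD, n = 3 each, adjusted p = 0.76). UBE2G1 (chromosome 17, 4269259 to 4366628) stood at 10.6, 8.41 and 9.56 FPKM and then at 7.04, 8.19 and 7.37 FPKM, with a narrow gap between the groups. Its fall was just past the threshold (log2 fold change -0.33 ± 0.11, SE, adjusted p = 0.049). In 11 of 15 alternatives UBE2G1 missed the threshold (adjusted p between 0.029 and 0.23 across the 15), among them leaving out any 1 of the SF3B4 siRNA libraries or control replicate 1 or 3 (adjusted p 0.052 to 0.14). UBE2G2, which serves ligases that clear misfolded proteins from the endoplasmic reticulum, was at 4.90, 3.93 and 3.65 FPKM in control and 3.25, 3.15 and 3.23 FPKM in SF3B4 siRNA libraries. The groups did not overlap, but the difference did not pass the threshold (log2 fold change -0.35, 95% interval -0.64 to -0.07, adjusted p = 0.059), except without control replicate 3 (adjusted p = 0.047, and up to 0.15 over 14 alternatives). UBE2K, at 3.16 ± 0.261 and 3.65 ± 0.0705 FPKM (SD, n = 3 each), had non-overlapping groups in the other direction and did not pass either (adjusted p = 0.14).

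UBE2N, the active enzyme for K63 chains, works as a pair with the inactive E2 variants UBE2V1 or UBE2V2. UBE2N (chromosome 12, 93405673 to 93442262) measured 4.88, 4.50 and 4.27 FPKM in control and 3.22, 3.17 and 3.42 FPKM in SF3B4 siRNA libraries. The groups were well apart, and UBE2N fell with a log2 fold change of -0.46 ± 0.09 (SE, n = 3 each, adjusted p = 0.0077). Of 14 alternatives, UBE2N missed the threshold in 1, without replicate 1 of both groups (adjusted p = 0.0501, and down to 0.0076 in the others). NUDT4, on the other strand, covers 39.5% of UBE2N's exonic length. NUDT4 was listed at 0.672 ± 0.0433 and 0.518 ± 0.155 FPKM, well below UBE2N, but without a known strand setting the UBE2N value is uncertain. UBE2V2 did not pass the filter, at 0.895, 0.841 and 0.673 FPKM in control and 0.927, 0.531 and 0.901 FPKM in SF3B4 siRNA libraries.

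UBE2V1 (chromosome 20, 50081124 to 50115959) split by replicate number and not by group. It stood at 16.3, 5.65 and 5.44 FPKM in control replicates 1 to 3 and at 15.4, 5.66 and 5.60 FPKM in SF3B4 siRNA replicates 1 to 3. The high value thus appeared in replicate 1 of both groups. UBE2V1 shares 42.9% of its exonic length, on the same strand, with PEDS1-UBE2V1 (TMEM189-UBE2V1 in GENCODE 29), a read-through of the upstream gene into UBE2V1. The read-through showed the opposite split, with 52.9, 95.6 and 94.6 FPKM in control and 35.8, 71.8 and 70.7 FPKM in SF3B4 siRNA libraries. Across the 9685 tested genes, UBE2V1 was the only gene in which both replicate 1 libraries lay at least 2-fold above all 4 others on the log2(FPKM + 0.1) scale, and 4 genes had both at least 2-fold below. For UBE2V1 the log2 fold change was -0.01 with a 95% interval of -1.48 to 1.45 (adjusted p = 0.99), and 0.02 without replicate 1 of both groups (adjusted p = 0.88), the latter an alternative chosen after seeing the data. Leaving out 1 library at a time moved it between -0.49 and 0.50. The read-through gave -0.46 (adjusted p = 0.36) with all libraries and -0.42 without replicate 1 of both groups, where it passed (adjusted p = 0.014). Over 15 alternatives its adjusted p ran from 0.0066, with replicate number as a block, to 0.77. Which share of the fragments over the common exons belongs to UBE2V1 cannot be told from these values, so its level and that of the read-through are both uncertain.

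**Figure D2:**
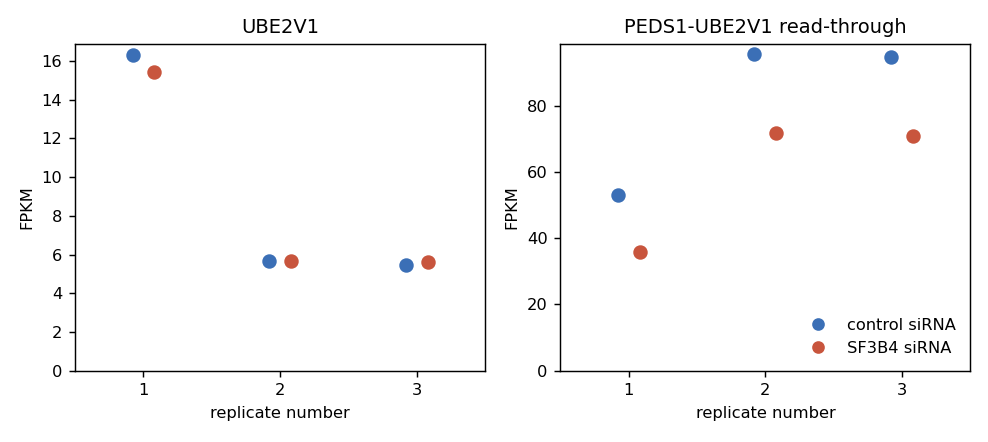
FPKM of UBE2V1 (left) and of the PEDS1-UBE2V1 read-through (right) by replicate number, 1 point per library, with control siRNA in blue and SF3B4 siRNA in red. Replicate 1 of both groups is high for UBE2V1 (16.3 and 15.4 FPKM) and low for the read-through (52.9 and 35.8 FPKM).

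UBE2L3, which hands ubiquitin to HECT and RBR ligases such as parkin, fell, and by the listed values was the third most abundant member in every library. UBE2L3 (chromosome 22, 21549447 to 21624034) measured 36.5, 37 and 35.8 FPKM in control and 30.7, 26.8 and 28.1 FPKM in SF3B4 siRNA libraries. The control libraries were tightly grouped and all above the SF3B4 siRNA libraries (log2 fold change -0.35 ± 0.07, SE, n = 3 each, adjusted p = 0.0074). Its relative UBE2L5 did not pass the filter, at 0.825, 0.605 and 0.592 FPKM and then 0.246, 0.356 and 0.232 FPKM, about 9 to 33 fragments per library. Fitted without the filter, UBE2L5 gave a log2 fold change of -1.04 (adjusted p = 0.025), which is uncertain because fragments of similar gene copies can be split between them.

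The UBE2D and UBE2E enzymes work with a broad range of RING ligases and often place the first ubiquitin. Of 6 tested, 0 passed in limma, against 34.1% of all tested genes, and 1 (UBE2D4) had an unadjusted p below 0.05. None had groups that did not overlap, against 49.5% of all tested genes. The difference of these 6 genes from those shares was not tested. UBE2D2, with UBE2E1 the most abundant of the 6, was at 15.7 ± 1.36 and 16.8 ± 0.574 FPKM (SD, n = 3 each). The 95% interval of its log2 fold change was -0.08 to 0.30. UBE2D3 (5.46 and 5.97 FPKM), UBE2E1 (14.7 and 15.8 FPKM), UBE2E2 (7.03 and 8.23 FPKM) and UBE2E3 (8.10 and 8.55 FPKM) also had intervals that include 0. UBE2D4, at 4.90 ± 0.716 and 6.11 ± 0.585 FPKM, came nearest to the threshold (log2 fold change 0.32, adjusted p = 0.0998). UBE2E2 passed only without control replicate 2 (log2 fold change 0.39, adjusted p = 0.031, and up to 0.55 over 15 alternatives). UBE2D1 and UBE2W, which tags the amino terminus of proteins, stayed below 0.5 FPKM. A pseudogene of 444 exonic bases, UBE2D3P1, was listed at 3.70 and 4.365 FPKM. UBE2D3 has 10069 exonic bases and 884 to 1140 fragments per library, so their FPKM values do not compare fragment numbers. How fragments were divided between them is not known, and to that extent the UBE2D3 value is uncertain.

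Both E2s anchored in the endoplasmic reticulum membrane, UBE2J1 and UBE2J2, had lower means after SF3B4 siRNA without passing the test. UBE2J1 was at 7.09 ± 0.977 and 6.07 ± 0.547 FPKM (adjusted p = 0.21), and UBE2J2 at 1.99 ± 0.192 and 1.65 ± 0.230 FPKM (adjusted p = 0.19, SD, n = 3 each). UBE2H, the E2 of the CTLH ligase, was at 10.5 ± 1.05 and 9.07 ± 0.872 FPKM, with groups separated by a narrow gap (adjusted p = 0.17).

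UBE2O, a large enzyme that combines E2 and E3 activity and removes orphan ribosomal proteins, rose. UBE2O (chromosome 17, 76389451 to 76453206) measured 5.60, 5.51 and 5.23 FPKM in control and 8.14, 8.54 and 7.94 FPKM in SF3B4 siRNA libraries. Every SF3B4 siRNA library was above every control library, with little spread inside either group (log2 fold change 0.58 ± 0.08, SE, n = 3 each, 1.50 times the control, adjusted p = 0.0016). UBE2Z, which takes ubiquitin from the E1 UBA6, was at 10.1 ± 0.404 and 11.8 ± 1.20 FPKM and did not pass (adjusted p = 0.12). UBA6 was below the filter, at 0.746 and 0.578 FPKM. UBE2Q1 was at 17.9 and 16 FPKM (adjusted p = 0.19). UBE2Q2 did not pass the filter, at 1.21, 0.807 and 1.09 FPKM and then 0.651, 0.661 and 0.676 FPKM, with all SF3B4 siRNA libraries lower (log2 fold change without the filter -0.56, adjusted p = 0.087). UBE2Q2L was listed at 0 to 0.996 FPKM.

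Of the E2s for ubiquitin-like modifiers, UBE2L6 was the 1 that passed. UBE2L6 (chromosome 11, 57551656 to 57568284), an interferon-inducible gene, measured 105.9, 131.8 and 109.9 FPKM in control and 157, 181 and 158 FPKM in SF3B4 siRNA libraries. Its lowest SF3B4 siRNA library was above its highest control library (log2 fold change 0.52 ± 0.10, SE, n = 3 each, 1.43 times the control, adjusted p = 0.0063). UBA7, the E1 of the ISG15 pathway, rose from 7.95 ± 1.17 to 12.5 ± 1.72 FPKM (SD, n = 3 each, adjusted p = 0.0095), a call lost without replicate 1 of both groups (adjusted p = 0.060, and down to 0.0081 over 15 alternatives). ISG15 itself was at 395, 587 and 493 FPKM and then 555, 674 and 560.0 FPKM, with overlapping groups (log2 fold change 0.29, adjusted p = 0.18). ISG15 passed without control replicate 2 (log2 fold change 0.43, adjusted p = 0.048) and with replicate number as a block (adjusted p = 0.039), and its adjusted p was at most 0.405 over 15 alternatives. UBE2M was at 95 ± 14.8 and 92.5 ± 1.50 FPKM (adjusted p = 0.88), and its pseudogene UBE2MP1 at 15.7 and 15.6 FPKM. UBE2F, the other E2 for NEDD8, was at 1.74 and 2.07 FPKM (adjusted p = 0.32). UBE2F shares 16.2% of its exonic length with UBE2F-SCLY (1.63 and 1.83 FPKM, adjusted p = 0.58), so reads over these exons may be split.

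SUMO3, a ubiquitin-like modifier, measured 95.3, 89.4 and 94.5 FPKM in control and 49, 18.5 and 53.1 FPKM in SF3B4 siRNA libraries. All 3 SF3B4 siRNA libraries were lower, replicate 2 by far the most (log2 fold change -1.35, adjusted p = 0.047). Without that replicate the log2 fold change was -0.87 (adjusted p = 0.00077). In 7 of 15 alternatives SUMO3 missed the threshold (adjusted p between 0.00077 and 0.11 across the 15), among them leaving out SF3B4 siRNA replicate 1 or 3 or any 1 control library (adjusted p 0.052 to 0.11). SUMO2 was at 25.9 and 27.4 FPKM (adjusted p = 0.49). UBA2, a subunit of the E1 for SUMO, fell from 13.3 ± 0.638 to 10.4 ± 0.975 FPKM (SD, n = 3 each, log2 fold change -0.35, adjusted p = 0.021). UBA2 missed the threshold in 6 of 15 alternatives (adjusted p between 0.017 and 0.12 across the 15), among them leaving out control replicate 1 or 3 or SF3B4 siRNA replicate 1 or 2 (adjusted p 0.052 to 0.068). SAE1, the other subunit, was at 58.7 and 53.4 FPKM (adjusted p = 0.13, and 0.035 to 0.34 over 15 alternatives), passing with quantile normalization.

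**Figure D3:**
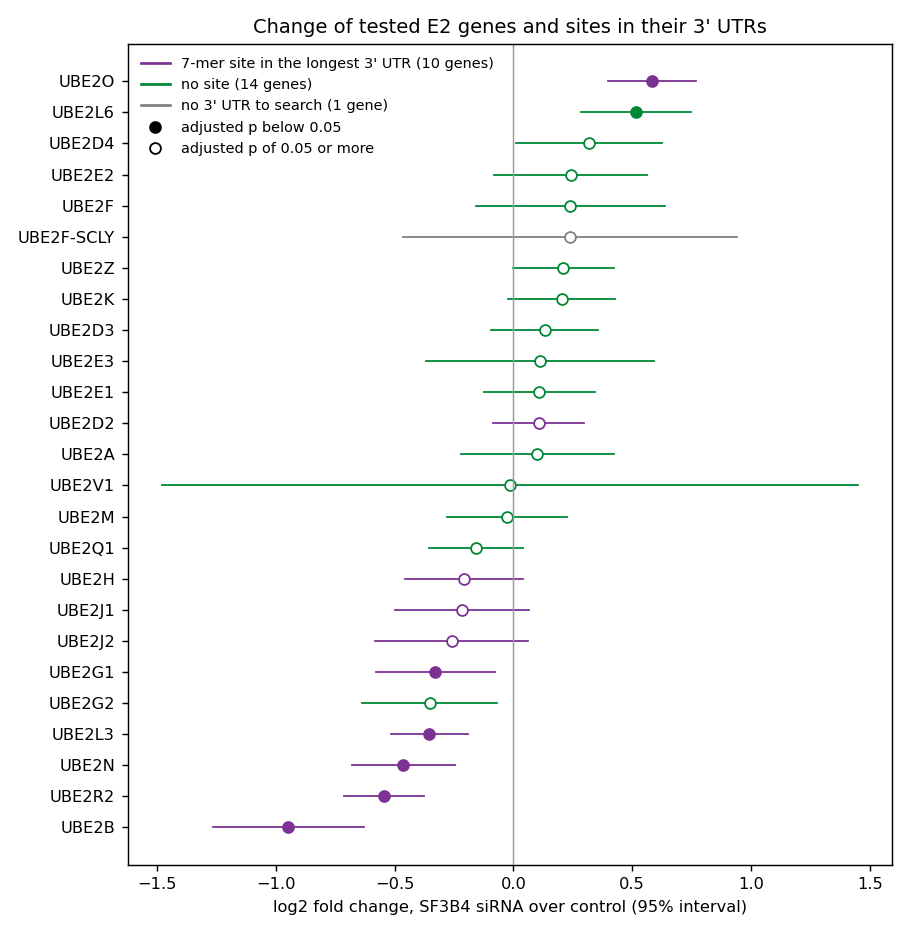
Log2 fold change of 25 of the 26 tested E2 genes (points, filled where adjusted p is below 0.05) with its 95% interval, coloured by whether the longest 3' UTR holds a 7-mer site. The 5 filled points below 0, from UBE2G1 at -0.33 to UBE2B at -0.95, are all genes with a site, and the widest interval is that of UBE2V1.

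The 5 tested members that fell each held at least 1 of a pair of short sequences in their 3' UTRs. The 7-mers GCCTTCA and CCTTCAA were picked in an earlier analysis of these same libraries as those most tied to lower levels, so what follows describes the E2 genes and is no separate support for the 7-mers. They were searched on the transcript strand of the longest 3' UTR among the GENCODE 29 basic coding transcripts of each gene. Of the tested members, 25 had a 3' UTR to search, and 10 of these (40.0%) held at least 1 site, against 19.1% of all tested genes searched. The 3 E2 genes left out of the membership held neither 7-mer and were also lower. UBE2S gave a log2 fold change of -0.54 (adjusted p = 0.0015). The pseudogenes UBE2SP1 (225 FPKM in control and 168 FPKM in SF3B4 siRNA libraries) and UBE2SP2 (142 and 101 FPKM) were listed above UBE2S and were lower as well. Fragments of similar gene copies can be split between them, so the UBE2S value is uncertain. UBE2T gave -0.30 (adjusted p = 0.015), missing the threshold without replicate 1 of both groups (adjusted p = 0.051, and down to 0.013 over 15 alternatives). UBE2C gave -0.33 (adjusted p = 0.039), missing the threshold in 9 of 15 alternatives, among them leaving out any 1 control library or SF3B4 siRNA replicate 1 or 2 (adjusted p between 0.016 and 0.15 across the 15). The sites of the members past the threshold are shown in their context to let them be compared, 5′ to 3′ on the transcript strand, with the matched bases in capitals.
UBE2B (GRCh38 chr5:134391469-134391498, plus strand): aactatcctatGCCTTCAAatagtatagaa
UBE2R2, site nearer the stop codon (chr9:33917853-33917881, plus strand): tgaaatgtgctCCTTCAAtctccatgaaa
UBE2R2, other site (chr9:33918577-33918605, plus strand): gagatccagcaGCCTTCAccatccaggag
UBE2N (chr12:93409429-93409457, minus strand): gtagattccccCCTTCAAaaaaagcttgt
UBE2L3 (chr22:21623759-21623787, plus strand): ctgccagccatGCCTTCAgggtaggctct
UBE2G1 (chr17:4269555-4269583, minus strand): tatctttaacgGCCTTCAttcttggttgt
UBE2O (chr17:76390255-76390283, minus strand): gagaggtggtgGCCTTCAcacatgcacat

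UBE2B, the tested member with the largest change, was the 1 member in which both 7-mers overlap as 8 bases. UBE2R2, with the next largest fall of the tested members, was the 1 member that passed with separate sites. Whether the number or form of sites goes with the size of a fall was not tested. Counted from 1 at the first base after the stop codon, the UBE2B site began at base 1127 of a 3' UTR of 1639 bases, and the UBE2R2 sites at bases 627 and 1351 of 3167. UBE2N held CCTTCAA at base 593 of 4349. UBE2L3 and UBE2G1 held GCCTTCA near the end of the 3' UTR, at base 2101 of 2365 and base 2982 of 3295. UBE2W, which did not pass the filter, also holds a site and was higher in all SF3B4 siRNA libraries. Fitted without the filter in limma, its log2 fold change was 0.22 (adjusted p = 0.41). The other 4 tested members with a site and no call were UBE2J1, with 2 sites, and UBE2J2, UBE2H and UBE2D2 with 1 each. Of these, UBE2J1 (-0.22), UBE2J2 (-0.26) and UBE2H (-0.21) had negative log2 fold changes, and UBE2D2 gave 0.11. UBE2O rose although its 3' UTR holds GCCTTCA. In all, 8 of the 10 tested members with a site had a log2 fold change below 0, and 5 of the 15 tested members with neither 7-mer did. The median was -0.29 in the former and 0.11 in the latter. Of the 15 members with neither, 0 fell in limma and 1, UBE2L6, rose. At an unadjusted p below 0.05, 1 of the 15, UBE2G2, was lower. These counts leave out members below the filter. Of those, UBE2L5 and UBE2Q2 held neither 7-mer, and all SF3B4 siRNA libraries were lower in both. Fitted without the filter in limma, they gave -1.04 (adjusted p = 0.025) and -0.56 (adjusted p = 0.087). UBE2D1 (0.08), UBE2Q2L (1.165) and UBE2V2 (-0.05) also held neither.

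Over all tested genes searched, 33.2% of the 1601 genes with a site fell and 65.5% had a log2 fold change below 0, with a median of -0.18. Of the 6781 genes with neither 7-mer, 15.3% fell and 47.0% were below 0, with a median of 0.02. By their median, the tested members with a site therefore lay on the same side as the other genes with a site. Length moved with the sites: the median 3' UTR was 2431 bases in genes with a site and 918 bases in the others, and 2709.5 and 1861 bases in the members. The part of 3' UTR length in the difference was not tested. The gene models give the longest 3' UTR, and whether these cells use it was not measured.

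**Figure D4:**
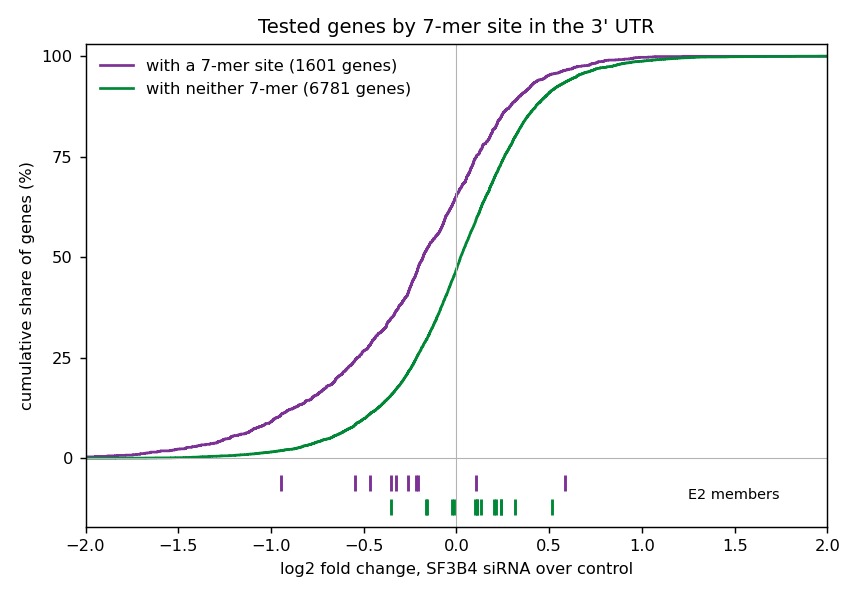
Cumulative share of tested genes (%) by log2 fold change, for 1601 genes with a 7-mer site (purple) and 6781 with neither (green), with the E2 members of each class as ticks below. The curve of genes with a site lies to the left, 65.5% against 47.0% below 0, and 8 of 10 purple ticks but 5 of 15 green ticks lie below 0.

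The rest of the cascade was described from 11 gene lists. E1 enzymes gave 1 gene higher and 1 lower of 8 tested, and UBA1, the main ubiquitin E1, was at 89.1 ± 3.87 and 100.8 ± 3.02 FPKM (SD, n = 3 each, adjusted p = 0.052, and 0.041 to 0.16 over 15 alternatives, passing with values rescaled to TPM and with the filter on mean FPKM of 5). Of 19 tested ubiquitin and ubiquitin-like genes, 3 rose and 2 fell. The ubiquitin gene UBB was at 123.9 ± 23.9 and 161 ± 4.96 FPKM (log2 fold change 0.40, adjusted p = 0.062). UBB passed without control replicate 1 (log2 fold change 0.49, adjusted p = 0.049) and without control replicate 2 (0.23, adjusted p = 0.037), with an adjusted p of up to 0.15 over 15 alternatives. GABARAPL2, an autophagy modifier, rose from 32.5 ± 2.28 to 44.9 ± 5.42 FPKM (adjusted p = 0.0098). Of 7 tested genes with an E2-like fold under other symbols, 3 rose and 0 fell in limma (0 lower at an unadjusted p below 0.05), and BIRC6, a giant enzyme with E2 and E3 activity, was at 1.19 and 0.987 FPKM (adjusted p = 0.25).

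Ligases moved in both directions. Of the lists in this paragraph, only the RBR ligases had a larger share called than the 34.1% of all tested genes. Cullin-RING core and neddylation genes rose in 4 and fell in 2 of 24 tested cases, with the adaptor gene ELOB at 125 ± 8.03 and 151.9 ± 1.91 FPKM (adjusted p = 0.012). HECT ligases rose in 2 and fell in 1 of 19, with HECTD3 at 16.3 ± 0.637 and 22.8 ± 1.58 FPKM (adjusted p = 0.0030), and RBR ligases rose in 2 and fell in 1 of 8. Among 21 tested genes of degradation at the endoplasmic reticulum, 4 rose and 1 fell. VCP, the ATPase that extracts ubiquitinated proteins, rose from 88 ± 0.748 to 115.7 ± 1.14 FPKM (adjusted p = 0.0012). Its cofactor NPLOC4 rose from 18.8 ± 0.852 to 24.8 ± 0.773 FPKM (adjusted p = 0.0040), although its 3' UTR holds each 7-mer 3 times. RNF5, a membrane-bound ligase, fell from 81.1 ± 7.17 to 53.5 ± 2.22 FPKM (adjusted p = 0.0013) without a site. Ligase partners of RAD6 and of the K63 enzymes rose in 3 and fell in 0 of 10 tested cases in limma (0 lower at an unadjusted p below 0.05), with ZNRF2 at 4.80 ± 0.438 and 7.26 ± 0.446 FPKM (adjusted p = 0.0039). CTLH genes, partners of UBE2H, fell in 2 and rose in 0 of 9 in limma (1 higher at an unadjusted p below 0.05), with a median log2 fold change of 0.04. Errors in this paragraph are SDs of 3 libraries per group.

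Deubiquitinases, which remove ubiquitin, were the longest of the 11 lists. Of 39 tested, 12 fell and 7 rose, 48.7% called, against 34.1% of all tested genes, with a median log2 fold change of -0.04. Of the other lists, the RBR ligases and the genes with an E2-like fold were also above 34.1%, and the rest were below it. The differences of the lists from that share were not tested. USP40 fell from 1.38 ± 0.190 to 0.635 ± 0.0868 FPKM (SD, n = 3 each, adjusted p = 0.0032) and holds a site, and UCHL1 rose from 0.562 ± 0.0543 to 1.29 ± 0.228 FPKM (adjusted p = 0.0030) although it holds one. Of the 12 fallen deubiquitinases, 7 held a site, and of the 7 that rose, 2 did. Of all 39 deubiquitinases searched, 13 held a site, and of all tested genes searched, 19.1% did. SUMO ligases and proteases rose in 1 and fell in 2 of 12 tested cases, with the ligase gene PIAS3 at 10.8 ± 0.333 and 7.90 ± 0.554 FPKM (adjusted p = 0.0049). Over the 11 lists, 11 of 24 falls and 5 of 30 rises carried a site, with a gene in more than 1 list counted under each. On that count, 42 of 176 list genes searched held a site. Over all tested genes searched, 531 genes with a site and 1035 with neither fell, and 150 and 1254 rose. The 7-mers were picked in these same libraries, so the counts are no separate support for them.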

How the data were processed

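The authors deposited 1 FPKM value per Ensembl gene for each of 6 libraries, per the file headers. HISAT2 2.0.4, StringTie 1.3.0 and GRCh38 are named, without roles, in the submitters' processing notes, and the sources used here state no annotation, strand setting or read layout. Depth was read from steps of low values in single-exon genes (99.1% to 99.5% within 0.02 of a whole number of fragments, up to 20 fragments). By GENCODE 29 exonic lengths, counting error was at most 13.9% (coefficient of variation) for a tested member, which covers counting error only. Symbols were found for 49659 identifiers and GENCODE 29 entries for 50111.

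Genes that reached an FPKM of 1 in 3 or more libraries were tested with limma 3.58.1 in R 4.3.3 (intensity trend, robust option, two-sided) on log2(FPKM + 0.1), Benjamini-Hochberg adjusted over 9685 genes, with a threshold of 0.05. Fold changes on that scale understate changes of low genes. On data simulated for this comparison (9608 genes), calls included 62 of 81 genes simulated at 1.5-fold, 56 of 57 at 2-fold and 60 of 62 at 4-fold, with 20 false among 198 calls. The simulation gave every gene the same set spread between libraries, not estimated from these data. It also changed far fewer genes than the 3298 called here. Its recovery and false calls therefore do not measure those of the test on these libraries. The members and lists were chosen with earlier results of these data known. The rule named every member, 6 single genes of the cascade, SF3B4 to SF3B6, and up to 4 called genes with the largest change per list, not all of which are printed. The values of 1 tested member and of some list genes are not reported here. Modifiers, E1 subunits, single markers, the 3 excepted UBE2 genes and overlapping genes linked to a member were added after their values were seen. Alternatives were other pseudocounts, filters, scalings and moderation, a replicate block and leaving out libraries.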

Additional observations from a re-analysis of the deposited data

How the results depend on the processing

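The SF3B4 log2 fold change was -2.22 to -2.04 under all alternatives and passed in each. The members that fell numbered 5, with a range of 4 to 5 on leaving out 1 library at a time, 3 with a filter on mean FPKM of 5, where UBE2B and UBE2N are not tested, and 3 without replicate 1 of both groups, where UBE2G1 and UBE2N (adjusted p = 0.0501) were lost. The members that rose numbered 2, with a leave-one-out range of 2 to 3. Over all genes, leave-one-out gave 1094 to 1492 higher and 1331 to 1604 lower, and the filter on mean FPKM of 5 gave 1027 higher and 940 lower. UBE2B, UBE2R2, UBE2L3, UBE2O and UBE2L6 kept direction and call under all 14 or 15 alternatives run for each. With the replicate block, 1290 genes were higher and 1537 lower, and 2 members were higher and 4 lower, UBE2G1 being lost (adjusted p = 0.099). The block also brought the PEDS1-UBE2V1 read-through (adjusted p = 0.0066) and ISG15 (adjusted p = 0.039) past the threshold. Same-numbered libraries did not deviate together (correlations of their deviations across genes -0.08, 0.02 and -0.12), so the numbers were not taken as pairs, and not every library correlated best with its own number. Rescaling to TPM and quantile normalization moved the median of all genes to 0.02 and 0.03 on the log2 scale and gave 1641 and 1738 higher beside 1629 and 1636 lower genes.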
